A study of Leucoraja erinaceus with 6 samples.

Results

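This account describes the ion pumps, ion channels and solute carriers expressed in embryonic spinal cord cells of the little skate (Leucoraja erinaceus). They were the rows of the authors' table of transcript abundances whose protein description names a solute carrier, a channel or a Na+/K+, Ca2+ or lysosomal H+ ATPase. Descriptions holding the words glycine, GABA, neurotransmitter, acetylcholine, family 17, member A3 or mitochondrial were left out. That wording kept carriers described in other words, such as the glutamate transporters SLC1A1 and SLC1A2 and the mitochondrial carrier SLC25A26. That gave 39 rows of 7080, of which 1577 carry any description, and 12 further rows fell to the exclusions. The rows came from 37 genes of the Trinity transcriptome assembly, because 2 of these genes hold 2 of the 39 rows each. A gene symbol here stands for a described protein match, not for a verified skate ortholog.

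RNA had been measured in manually sorted cells from wild type embryos at stages 30 to 31. Pectoral fin motor neurons gave 3 libraries (replicates 1, 2 and 3), and cells of the tail spinal cord gave the other 3 (replicates 1, 2 and 4). By their labels the groups differ in axial level as well as in cell class, and these cannot be told apart. The labels leave unsaid whether each library had its own embryo, and the p-values measure the spread between these libraries alone, which may be technical.

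Membrane pumps spend ATP to build ion gradients across the cell surface and across the membranes of organelles. Channels let ions run down those gradients, which in neurons makes the resting potential, the action potential and transmitter release. Solute carriers use the gradients or simple exchange to move amino acids, sugars, metals and nucleotide sugars. Motor neurons are large, far-projecting cells with a heavy demand for the Na+/K+ pump, whose alpha 3 form is typical of neurons in adult mammals.

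The libraries differed in how many rows they recorded. Pectoral replicate 1 had 5 of 7080 rows listed at 0, and tail replicate 4 had 3552. The deposited rows summed to 48449 to 74224 TPM (a transcript abundance scaled for transcript length and library total), and read depth is unknown. The motor neuron factor ISL1 ranged from 1.22 to 4.81 TPM among pectoral and from 0 to 0.249 TPM among tail libraries (exact two-sided permutation p = 0.1, the smallest that 3 libraries against 3 can give). Of 6 listed motor neuron markers 4 had a row, and their sum was 7.99 to 11.6 TPM in pectoral and 2.91 to 5.96 TPM in tail libraries. For the other 3 of these, exact p was 0.1 for ISL2, 0.3 for SLC18A3 and 1 for CHAT. Of 6 progenitor and radial glial markers 5 had a row, and their sum was 73.7 to 116 TPM in pectoral and 22.7 to 55.2 TPM in tail libraries. The list did not move as one. Most of its pectoral sum was ID4, at 30.3 to 76.9 TPM against 0.309 to 22.4 TPM, and FABP7, at 10.6 to 41.4 TPM against 5.74 to 20.97 TPM. SOX2, SOX9 and PAX6 had their highest library in the tail group, at 14.0, 19.7 and 2.59 TPM, against at most 2.85, 4.30 and 1.40 TPM in pectoral libraries. The groups overlapped for each of them. Cartilage markers had a row for 2 of 3 genes, COL2A1 and SOX9, the latter also in the progenitor list. COL2A1 stood at 69.0 TPM in pectoral replicate 2 and at no more than 4.91 TPM in any other library. The markers of myelinating glia, skeletal muscle, red cells and vessels had no described row. The part of such cells in the values below was not tested, and in bulk samples fewer cells of a type and less RNA per cell cannot be told apart.

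The members were recorded unevenly across libraries. In pectoral replicates 1, 2 and 3, 32, 19 and 19 of the 39 rows reached 1 TPM. In tail replicates 1, 2 and 4, 24, 16 and 9 rows did. The group ranges overlapped, and the members had their highest and lowest library in common with the whole table. Members stood at 82.1% against 75.8% of all rows in pectoral replicate 1, and at 23.1% against 27.3% in tail replicate 4. In the other 4 libraries the members stood at 48.7%, 48.7%, 61.5% and 41.03%, where all rows stood at 39.3%, 38.1%, 60.2% and 44.1%. Every member carries a description, so the 1577 described rows are a closer comparison. Of those rows, 77.7%, 47.6% and 46.9% reached 1 TPM across the pectoral libraries, listed by replicate number. Across the tail libraries 65.6%, 50.2% and 32.8% did. Member shares lay above these in each pectoral library and below them in each tail library. In pectoral replicates 2 and 3, at 48.7% against 47.6% and 46.9%, 1 member row fewer would reverse the order. The contrast was not tested, and no group pattern is read from it. No member was at 0 in pectoral replicate 1, where the lowest stood at 0.738 TPM, while 22 members were at 0 in tail replicate 4. How rows were chosen for the deposited table is not given in the sources used here. In pectoral replicate 1, 1531 of the 1577 described rows stood at 0.5 TPM or more, against 609 in tail replicate 4, and the part of such a choice in these shares was not tested. The order also depended on the level. At 5 TPM, pectoral replicates 1, 2 and 3 held 6, 11 and 7 members and tail replicates 1, 2 and 4 held 13, 8 and 7, so that pectoral replicate 1 went from the highest library to the lowest, as it did for all rows (718 of 7080 at 5 TPM). Of the 39 rows, 8 reached 1 TPM in all 6 libraries (20.5%, against 9.14% of all rows) and 2 reached it in none. The same shares over the described rows, the closer comparison, were not counted.

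**Figure D1:**
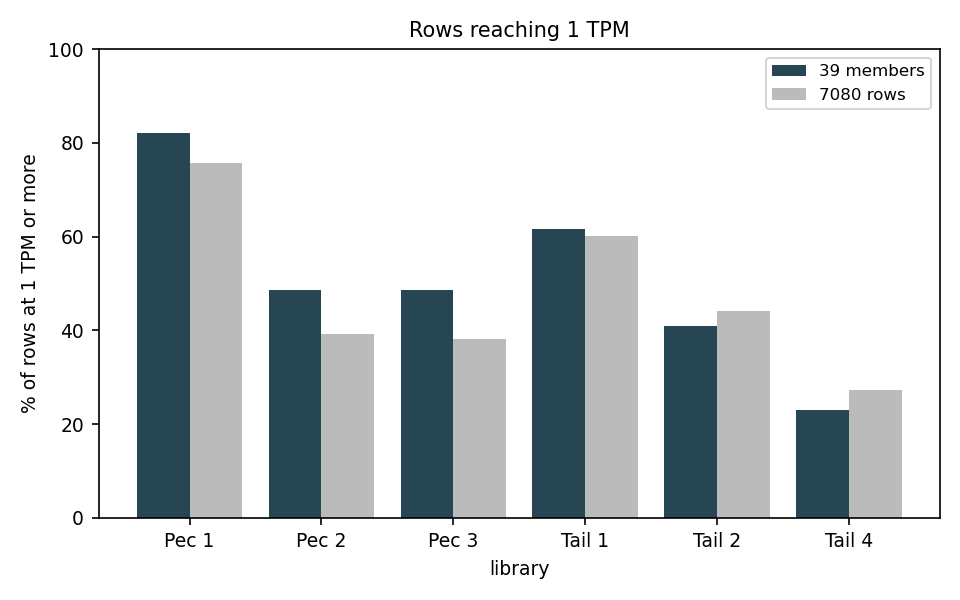
Share of rows at 1 TPM or more (y axis, percent) in each library (x axis), for the 39 members (dark bars) and for all 7080 deposited rows (grey bars). Pectoral replicate 1 has the highest share, 82.1% of members, and tail replicate 4 the lowest, 23.1%.

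The 8 rows at 1 TPM or more in every library included both rows of the alpha 3 subunit of the Na+/K+ pump, the proton pump subunits ATP6V0C and ATP6V1E1, the intracellular chloride channel protein CLIC4 and the mitochondrial pore VDAC2. The 39 rows summed to 152, 179 and 118 TPM in pectoral and to 231, 116 and 240 TPM in tail libraries. These sums overlapped between the groups.

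**Figure D2:**
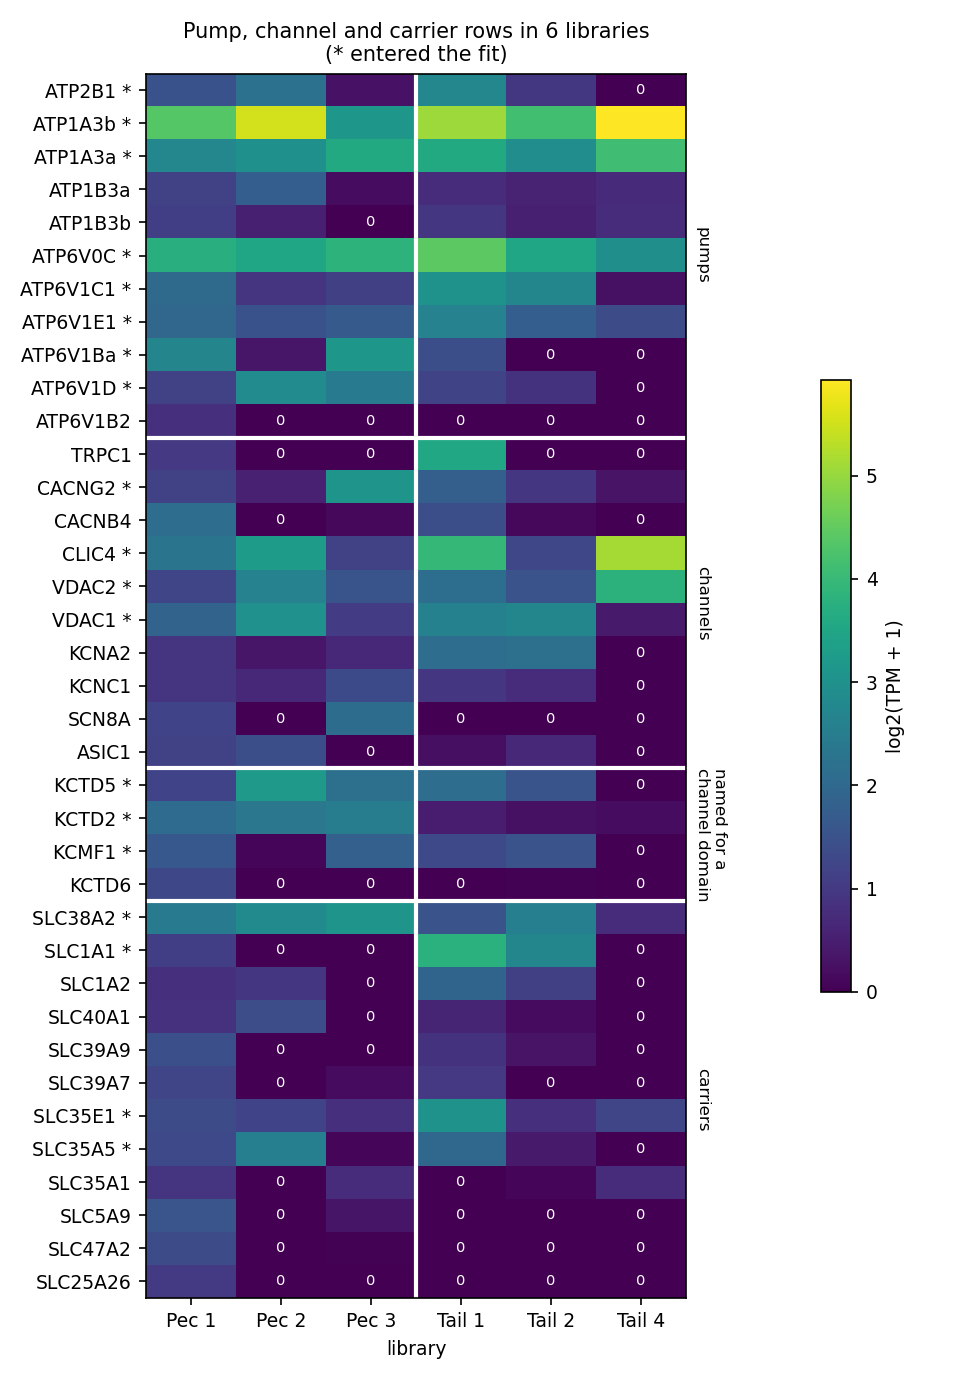
Level of 37 of the 39 members (rows, grouped as pumps, channels, proteins named for a channel domain, and carriers) in the 6 libraries (columns), as log2(TPM + 1) by colour. A printed 0 marks a value listed at 0, and a star marks the 19 of these rows that entered the fit. The brightest row shown, by its mean, is ATP1A3b, and tail replicate 4 has 22 zeros.

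Group differences were read from a linear model (limma) of log2(TPM + 1) over the 3752 rows of the whole table that reached 1 TPM in 3 or more of the 6 libraries. Fold changes are pectoral minus tail, and for low rows the added 1 shrinks them below the ratio of TPM. Of the 39 members 21 entered: 10 of 13 pumps, 4 of 10 channels, 4 of 12 carriers and 3 of 4 proteins named for a channel domain. At a Benjamini-Hochberg adjusted p under 0.05, 0 of 21 members were called, where 0.0800% of all tested rows were (3 rows). The lowest adjusted p of a member was 0.64. At an unadjusted p under 0.05 the fit held 1 of 21 members, or 4.76%, beside a background of 7.04%. The groups did not overlap in 1 of 21 members, or 4.76%, beside a background of 11.8%. Both of these were KCTD2. Each member share rests on 1 row of 21, too few to set it apart from its background.

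Standard errors of the members' log2 fold changes had a median of 0.96. In limma each of these draws in part on the spread of all tested rows. The median log2 fold change of the 21 members was 0.06, that of all tested rows -0.18. Fold changes ran from -1.80 to 2.002, with 12 positive and 9 negative. Of the members 57.1% thus lay above 0, beside 43.5% of all tested rows, a contrast that was not tested. Median-ratio scaling moved the median of all rows by 0.26 to 0.08 and that of the members to 0.39. Leaving out 1 library moved the members' median between -0.24, without pectoral replicate 2, and 0.40, without tail replicate 1.

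**Figure D3:**
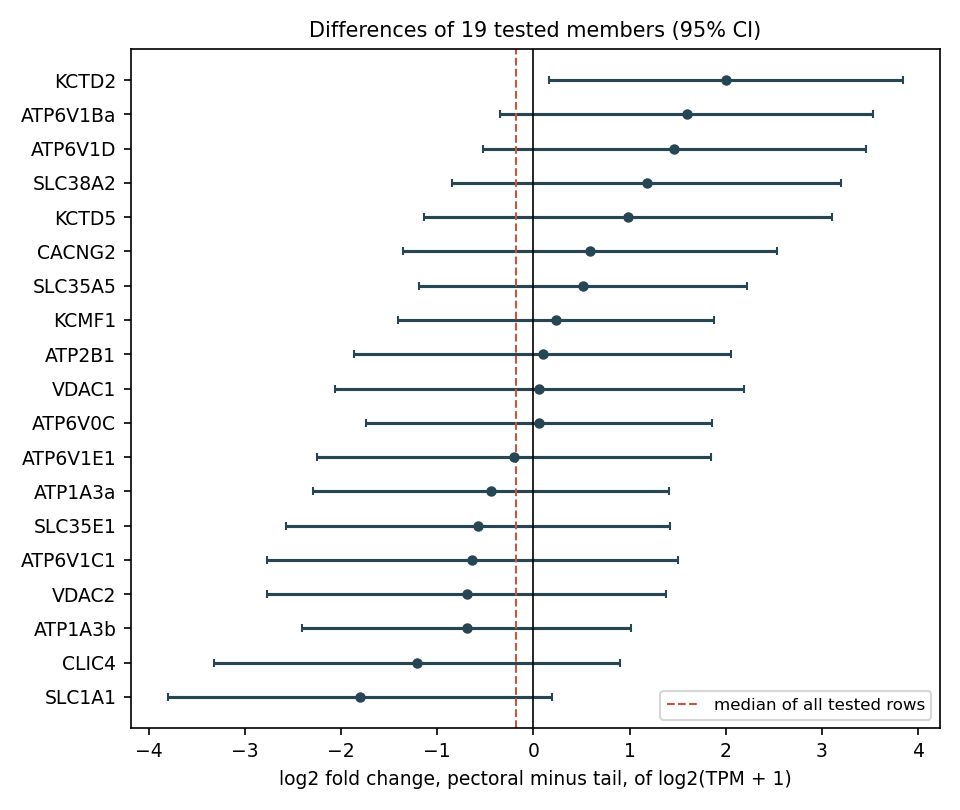
Difference between the groups for 19 of the 21 tested members (y axis), as pectoral minus tail log2 fold change of log2(TPM + 1) (x axis). Points are limma estimates, bars their 95% confidence intervals before adjustment, and the dashed line the median of all 3752 tested rows (-0.18). The intervals of 18 of them include 0, and that of KCTD2 runs from 0.16 to 3.84.

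The Na+/K+ pump exports sodium and imports potassium with an alpha subunit that hydrolyses ATP and a beta subunit that carries it to the membrane. Alpha 3, the neuronal form, had 2 rows that are contigs of 1 Trinity gene, so that reads may be split between them. The row described as alpha 3b (ATP1A3b) stood at 19.7, 45.1 and 7.81 TPM in the pectoral group, against 32.4, 16.5 and 60.01 TPM in the tail group. It was the highest member of pectoral replicate 2. The row described as alpha 3a (ATP1A3a) stood at 5.65, 6.83 and 11.1 TPM against 11.2, 6.53 and 16.4 TPM. Summed, alpha 3 stood at 25.3, 51.9 and 18.9 TPM in the pectoral group, against 43.6, 23.05 and 76.4 TPM in the tail group, and the groups overlapped. The limma log2 fold changes were -0.70 for ATP1A3b (SE 0.84, adjusted p = 0.90) and -0.44 for ATP1A3a (SE 0.91, adjusted p = 0.94), the latter turning to 0.11 with quantile scaling.

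Shares within a library do not depend on how that library was scaled. The 3b row made up 77.7%, 86.8% and 41.3% of the summed alpha 3 level in pectoral libraries and 74.4%, 71.7% and 78.6% in tail libraries. Pectoral replicate 3 stood apart as the only library in which the 3a row exceeded the 3b row, and the groups overlapped (exact two-sided permutation p = 0.9, smallest possible 0.1).

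The beta subunit rows were far lower than the alpha 3 rows. Beta 3 had 2 described rows, at 0.144 to 2.84 TPM when summed, where alpha 3 summed to 18.9 to 76.4 TPM on the same scale. ATP1B3a stood at 1.21, 2.40 and 0.144 TPM in the pectoral group, against 0.677, 0.511 and 0.656 TPM in the tail group. It reached 1 TPM in 2 libraries, both pectoral, and was too low for the fit. ATP1B3b reached 1 TPM in pectoral replicate 1 at 1.13 TPM and stood at 0 to 0.928 TPM in the other libraries. An undescribed contig of the ATP1B3b gene, left out of the sum, stood at 0.475, 0 and 0.0141 TPM in the pectoral group. In the tail group it stood at 1.42, 0 and 0 TPM. Other beta subunits were not among the described rows. Phospholemman (FXYD1), a small regulator of the pump that the wording of the rule did not take, stood at 60.97, 51.6 and 39.3 TPM in the pectoral group, against 71.8, 3.44 and 15.5 TPM in the tail group. Tail replicate 1 was its highest library and the other 2 tail libraries its lowest (log2 fold change 1.54, SE 0.87, limma adjusted p = 0.81).

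ATP2B1, the calcium pump of the plasma membrane, which clears calcium after activity, stood at 1.83, 3.65 and 0.213 TPM in the pectoral group, against 5.74, 0.941 and 0 TPM in the tail group. Its groups overlapped over their whole pectoral range (log2 fold change 0.10, SE 0.96, limma adjusted p = 0.996). No endoplasmic reticulum calcium pump was among the described rows.

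The lysosomal H+ pump acidifies lysosomes and synaptic vesicles. Its V0 sector carries protons through the membrane and its V1 sector hydrolyses ATP in the cytosol. The V0 subunit c (ATP6V0C), the proteolipid ring, was the third member by mean level. It stood at 12.1, 10.2 and 13.4 TPM in the pectoral group, against 20.5, 10.4 and 6.71 TPM in the tail group, an 11.9 ± 1.58 TPM mean against 12.5 ± 7.14 TPM (SD, n = 3 each). Its log2 fold change was 0.05 (SE 0.88, limma adjusted p = 0.998, interval -1.74 to 1.85). Its highest and lowest libraries differed by a fold of 3.05, near the 2.89 of ATP1A3a and the 3.34 of ATP6V1E1. CLIC4 varied by a fold of 27.5.

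The V1 subunits were lower and, apart from ATP6V1E1, less even. ATP6V1E1, of the peripheral stalk, stood at 2.91, 1.84 and 2.19 TPM in the pectoral group, against 5.18, 2.44 and 1.55 TPM in the tail group. ATP6V1C1, which joins the V1 and V0 sectors, stood at 3.17, 0.898 and 1.16 TPM against 7.18, 5.56 and 0.199 TPM. Tail replicates 1 and 2 were its 2 highest libraries and tail replicate 4 its lowest. ATP6V1D, of the central rotor, stood at 1.20, 6.27 and 4.57 TPM in the pectoral group, against 1.34, 0.819 and 0 TPM in the tail group. Its overlap came from pectoral replicate 1 and tail replicate 1 alone (log2 fold change 1.46, SE 0.98, limma adjusted p = 0.85).

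Subunit B of the catalytic head had 2 described rows of 1 Trinity gene. An undescribed contig of that gene stood at 1.60, 0 and 0 TPM in the pectoral group, against 0, 0.370 and 0 TPM in the tail group. The row described as V1 subunit B, member a (ATP6V1Ba) stood at 5.46, 0.289 and 7.80 TPM in the pectoral group, against 1.67, 0 and 0 TPM in the tail group. Pectoral replicates 1 and 3 lay above every tail library and pectoral replicate 2 lay below tail replicate 1 (log2 fold change 1.59, SE 0.95, limma adjusted p = 0.84). Its partner row, ATP6V1B2, stood at 0.773 TPM in pectoral replicate 1 and was listed at 0 elsewhere. Subunits of this complex differed in their highest library. Tail replicate 1 was the highest library for ATP6V0C, ATP6V1E1 and ATP6V1C1, pectoral replicate 2 for ATP6V1D and pectoral replicate 3 for ATP6V1Ba. A V0 subunit e2 row, described without the word lysosomal, stood at 1.78, 5.42 and 1.03 TPM against 1.06, 7.43 and 0 TPM (log2 fold change 0.35, SE 1.05, limma adjusted p = 0.97).

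Sodium and potassium channels had 2 described rows each, at no more than 3.59 TPM in any library. SCN8A, the sodium channel of the axon initial segment and nodes, stood at 1.28, 0 and 3.25 TPM in the pectoral group, with a 0 listed for every tail library. ASIC1, a proton-gated sodium channel, stood at 1.22, 1.68 and 0 TPM in the pectoral group, against 0.187, 0.586 and 0 TPM in the tail group. KCNA2, a low-threshold axonal potassium channel, was highest in 2 tail libraries, with 0.882, 0.285 and 0.578 TPM in the pectoral group, against 3.34, 3.59 and 0 TPM in the tail group. KCNC1, the fast-spiking potassium channel, stood at 0.892, 0.608 and 1.52 TPM against 0.915, 0.691 and 0 TPM. None of the 4 reached 1 TPM in 3 libraries, so none was tested. SCN8A and ASIC1 reached 1 TPM in pectoral libraries and no tail library, and KCNA2 in tail libraries and no pectoral library, in 2 libraries each. Of all rows 21.5% reached 1 TPM in exactly 2 libraries, and of members 15.4%. How many of those rows kept to 1 group was not counted, so no group pattern is read from these channels.

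Both calcium channel rows were auxiliary subunits. CACNG2 (stargazin), which also escorts AMPA receptors to synapses, stood at 1.26, 0.468 and 7.40 TPM in the pectoral group, against 2.45, 0.923 and 0.237 TPM in the tail group. Pectoral replicate 3 alone carried its high value (log2 fold change 0.59, SE 0.96, limma adjusted p = 0.92). CACNB4, a cytosolic beta subunit, reached 1 TPM in replicate 1 of each group only, at 3.35 TPM in pectoral and 1.67 TPM in tail. TRPC1, a cation channel of store and receptor signalling, stood at 10.5 TPM in tail replicate 1 and 0.964 TPM in pectoral replicate 1, and was listed at 0 in the other 4 libraries.

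By mean level over the 6 libraries, the highest channel rows were CLIC4, VDAC2 and VDAC1. In their highest library, TRPC1 and CACNG2 stood above the highest VDAC1 value. CLIC4, a chloride intracellular channel protein, stood at 3.87, 8.56 and 1.23 TPM in the pectoral group, against 14.5, 1.39 and 33.8 TPM in the tail group. Tail replicates 4 and 1 were its highest libraries, but tail replicate 2 lay near the lowest pectoral value (log2 fold change -1.21, SE 1.04, limma adjusted p = 0.88). Leaving out tail replicate 2 moved this value to -2.31, and leaving out tail replicate 4 moved it to -0.37. VDAC1 and VDAC2 form the pore of the mitochondrial outer membrane. VDAC2 read 1.37, 5.17 and 1.89 TPM in the pectoral group against 3.43, 1.88 and 13.1 TPM in the tail group. VDAC1 read 2.72, 7.04 and 1.06 TPM against 5.05, 5.62 and 0.355 TPM. Tail replicate 4 was thus the highest library for VDAC2 and the lowest for VDAC1. Their limma log2 fold changes were -0.70 (SE 1.02, adjusted p = 0.91) and 0.06 (SE 1.04, adjusted p = 0.998).

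Among the rows that the word channel brought in are 4 proteins that are not channels themselves. KCTD2, KCTD5 and KCTD6 share a domain with the assembly domain of potassium channels and serve as substrate adaptors of cullin-3 ubiquitin ligases, and KCMF1 is a ubiquitin ligase. KCTD2 was the member with the smallest p. Pectoral replicates 1, 2 and 3 read 3.20, 4.09 and 4.59 TPM for it, and tail replicates 1, 2 and 4 read 0.360, 0.200 and 0.140 TPM. The lowest pectoral library lay above the highest tail library, and the group means were 3.96 ± 0.705 TPM and 0.233 ± 0.114 TPM (SD, n = 3 each), a ratio of 16.97. Its log2 fold change was 2.002 (SE 0.90, limma unadjusted p = 0.034, adjusted p = 0.64), and it ranked 196th by p among the 3752 rows. In the authors' deposited table its p-value was 0.000830, the only one under 0.05 among the 39 members, where 219 of 7080 rows were.

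KCTD2 entered the fit through the pectoral libraries alone, as 3.36% of tested rows did through 1 group, so a difference was built into its selection. In the 6 fits without 1 library its unadjusted p stayed under 0.05 in 2 (not without pectoral replicate 1, nor without any single tail library). Its log2 fold change ran from 1.91 to 2.12 in those fits and, over all 14 alternatives, from 0.77 with a pseudocount of 5 to 3.65 with a pseudocount of 0.1. Its adjusted p ran from 0.25 to 0.97 over the 14. The summed motor neuron markers and the summed progenitor and radial glial markers given above were also higher in every pectoral than in every tail library. So were ISL1, ISL2 and ID4 on their own, while CHAT, SLC18A3 and FABP7 overlapped between the groups. SOX2, SOX9 and PAX6 had their highest library in the tail group and overlapped between the groups as well. The part of these markers in the KCTD2 difference was not tested.

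None of the other proteins named for a channel domain separated the groups. KCTD5 stood at 1.27, 8.21 and 3.60 TPM in the pectoral group, against 3.34, 1.89 and 0 TPM in the tail group (log2 fold change 0.98, SE 1.04, limma adjusted p = 0.89). KCTD6 stood at 1.43 TPM in pectoral replicate 1, 0.0299 TPM in tail replicate 2 and 0 elsewhere, too low for the fit. KCMF1 stood at 2.11, 0.0661 and 2.50 TPM against 1.46, 1.89 and 0 TPM (log2 fold change 0.24, SE 0.81, limma adjusted p = 0.98).

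**Figure D4:**
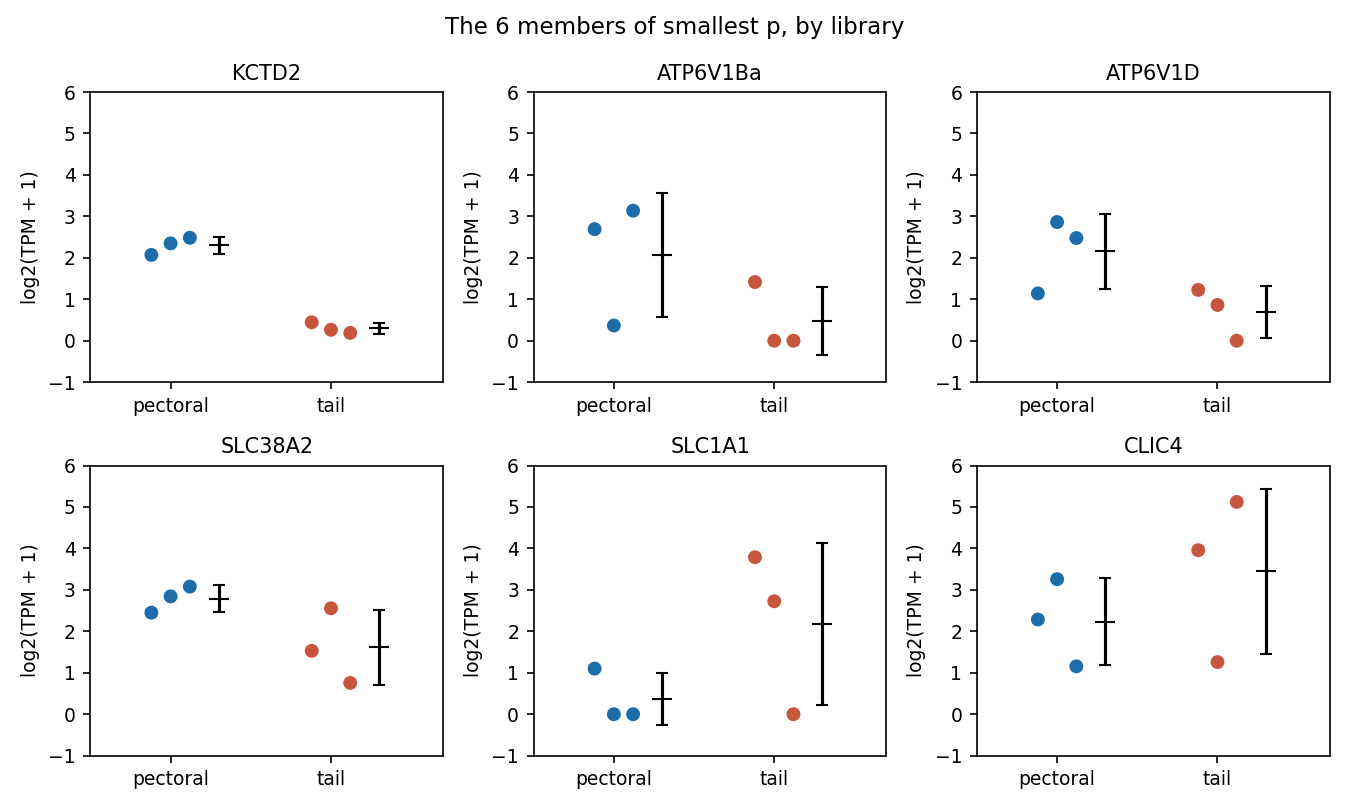
Level in each library as log2(TPM + 1) (y axis) of the 6 members of smallest p, with pectoral libraries in blue and tail libraries in red; the bar beside each group is its mean ± SD (n = 3). KCTD2 is the 1 panel in which the groups do not overlap.

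The amino acid carriers had 3 rows. SLC38A2, which takes up small neutral amino acids such as glutamine with sodium, stood at 4.46, 6.17 and 7.45 TPM in the pectoral group, against 1.89, 4.88 and 0.687 TPM in the tail group. Tail replicate 2 lay above pectoral replicate 1, the 1 overlap between the groups (log2 fold change 1.18, SE 0.99, limma adjusted p = 0.87). SLC1A1, the glutamate transporter of neurons and epithelia, stood at 1.14, 0 and 0 TPM in the pectoral group, against 12.8, 5.61 and 0 TPM in the tail group. Tail replicates 1 and 2 were high and tail replicate 4 was listed at 0 (log2 fold change -1.80, SE 0.98, limma adjusted p = 0.78). Leaving out tail replicate 1 moved this value to -0.995, and leaving out tail replicate 4 moved it to -2.89. SLC1A2, the glutamate transporter of astrocytes, stood at 0.738, 0.916 and 0 TPM against 2.76, 1.17 and 0 TPM, below the level for testing. An undescribed contig of its Trinity gene, TRINITY_DN23651_c0_g1_i2, stood at 0.738, 0.916 and 0.0684 TPM against 3.55, 1.33 and 0 TPM. Both glutamate transporters thus reached their highest level in tail replicate 1 and were listed at 0 in pectoral replicate 3 and tail replicate 4.

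The nucleotide sugar family, which feeds glycosylation in the Golgi, had 3 rows. SLC35E1 stood at 1.55, 1.29 and 0.774 TPM in the pectoral group, against 7.25, 0.762 and 1.37 TPM in the tail group, with tail replicate 1 alone high (log2 fold change -0.58, SE 0.98, limma adjusted p = 0.92). SLC35A5 stood at 1.50, 4.85 and 0.0721 TPM against 2.99, 0.337 and 0 TPM (log2 fold change 0.52, SE 0.84, limma adjusted p = 0.92). SLC35A1, which carries CMP-sialic acid, reached at most 0.859 TPM, in pectoral replicate 1. Of the metal carriers, the iron exporter SLC40A1 peaked at 1.64 TPM in pectoral replicate 2. The zinc transporters SLC39A9 and SLC39A7 peaked at 1.74 and 1.36 TPM in pectoral replicate 1. The sugar cotransporter SLC5A9, the toxin exporter SLC47A2 and the S-adenosylmethionine carrier SLC25A26 peaked in the same library at 1.98, 1.60 and 1.01 TPM, and were listed at 0 in all 3 tail libraries and in pectoral replicate 2. Of the 18 members outside the fit, 11, 3 and 2 reached 1 TPM in pectoral replicates 1, 2 and 3, and 4, 2 and 0 in tail replicates 1, 2 and 4. Pectoral replicate 1 held more of these low detections than any other library, and the groups overlapped. Of all 7080 rows 75.8% reached 1 TPM in that library, also the highest share. The same share over all rows outside the fit was not counted. Pectoral replicate 1 was the highest library of 10 of the 39 members, or about the share of all rows (26.4%).

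Rows of related function outside the wording were few. Lists of 8 groups were searched in the descriptions. Gap junction, pannexin and aquaporin genes and carbonic anhydrases had no described row. Of the calcium buffers and sensors 1 of 6 rows entered the fit, calbindin 2, at 2.15, 0.201 and 0.494 TPM against 2.36, 2.06 and 0 TPM (log2 fold change -0.29, SE 0.76, limma adjusted p = 0.97). Single rows matched for ionotropic glutamate receptors, ABC proteins and the search for calcium release channels were too low to test. The last of these matched a SOCS box protein with a ryanodine receptor domain and not a release channel. Among these lists 3 rows entered the fit in all, FXYD1 included, and 0 passed.

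Across the 21 tested members, log2 levels gave r of 0.45 to 0.79 between libraries sharing a group (6 pairs) and for pairs across the groups r was 0.25 to 0.76 (9 pairs). Over all 3752 tested rows the same ranges were 0.36 to 0.48 and 0.27 to 0.44. These are correlations across rows of shared libraries and carry no test. The 2 ranges overlapped for the members and for all tested rows.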

How the data were processed

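The authors deposited 1 table of TPM with a column for each of 6 libraries, per the file headers, together with a p-value for each row. Trimmomatic 0.33, Salmon 0.8.2 and edgeR 3.18.1 appear in the submitters' processing notes with no role stated; per the labels' protocols, RNA was extracted with a PicoPure kit and made into stranded mRNA libraries. Neither the genome build nor how proteins were matched is given in the sources used here. TPM keep no read number, so depth is unknown and no counting interval or floor is given, and an exact 0 is treated as listed at 0. Libraries were grouped by the source in the labels.

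Of 7081 rows, 1 exact repeat was removed. Members were picked by words in the description and given symbols by hand; 21 of 39 symbols, allowing a final letter, also occur in the RefSeq table of the skate assembly Leri_hhj_1, in which 0 of the deposited accessions were found. Rows reaching 1 TPM in 3 or more of the 6 libraries were fitted with limma 3.58.1 in R 4.3.3 (empirical Bayes with a mean-variance trend, two-sided) on log2(TPM + 1), with Benjamini-Hochberg adjustment over all 3752 rows. The fit was tested on simulated data. Every member in the fit is named with its values, except 2 that are not reported here. Other members are named where they reach 1 TPM in 2 libraries or 5 TPM in a channel or pump row; the remaining ones were named after their values were seen. The members, lists and tests were chosen with earlier results of these data known. Alternatives were pseudocounts of 0.1 and 5, no filter, median-ratio and quantile scaling, array weights, a replicate block and leaving out libraries; sums by Trinity gene and a median without the proteins named for a channel domain were added after seeing the data.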

Additional observations from a re-analysis of the deposited data

How the results depend on the processing

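No member passed an adjusted p of 0.05 under any of the 16 settings run (0 called in each). For the 19 tested members reported by name, the lowest limma adjusted p over the 14 alternatives fitted on single rows was 0.25. All tested rows called numbered 3, against 1 with a pseudocount of 0.1, median-ratio scaling, quantile scaling or the replicate block, 26 with array weights, 0 when pectoral replicate 1 and tail replicate 4 were both left out, and 1 to 3 without 1 library. Members with an unadjusted p under 0.05 numbered 2 with median-ratio scaling, 3 with quantile scaling or array weights, and 0 to 2 without 1 library. Of all tested rows, 7.28% did so with median-ratio scaling, 7.62% with quantile scaling and 12.95% with array weights. Without 1 library that share was 4.96% to 10.5%. Members with separated groups numbered 3 with median-ratio scaling (KCTD2, ATP6V1D and ATP6V0C, higher in pectoral) and 2 with quantile scaling (KCTD2 and SLC38A2). The shares of all tested rows were 12.6% and 12.9%. Separated members numbered 1 to 5 without 1 library, beside 17.5% to 27.7% of all tested rows. Without both libraries they numbered 8, beside 39.8% of all tested rows. Fewer libraries separate more easily. At a level of 5 TPM the members recorded numbered 6, 11 and 7 in pectoral replicates 1, 2 and 3 and 13, 8 and 7 in tail replicates 1, 2 and 4, so pectoral replicate 1, highest at 1 TPM, was lowest at 5 TPM.

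Of the 19 tested members reported by name, 7 kept their direction under all alternatives run and 12 did not in at least 1. The cause of these changes was not tested. Without 1 library the log2 fold change ran from -0.095 to 1.13 for SLC35A5, -0.15 to 1.11 for CACNG2, -1.02 to 0.094 for SLC35E1, -0.24 to 0.78 for KCMF1, -0.49 to 0.15 for ATP6V1E1, -0.52 to 0.85 for ATP2B1, -0.29 to 0.45 for ATP6V0C and -0.68 to 0.53 for VDAC1. With its sign kept, it ran from -2.89 to -0.995 for SLC1A1, -2.31 to -0.37 for CLIC4, -1.51 to -0.12 for ATP6V1C1, -1.29 to -0.093 for ATP1A3b, -1.18 to -0.035 for VDAC2, -0.76 to -0.16 for ATP1A3a, 0.37 to 1.48 for KCTD5, 0.75 to 1.65 for SLC38A2, 1.06 to 2.44 for ATP6V1Ba and 1.11 to 1.97 for ATP6V1D. Without both libraries it changed sign to 0.24 for VDAC2, 0.026 for ATP1A3a, -0.46 for KCMF1, -0.61 for ATP2B1, -0.30 for ATP6V0C and -0.64 for VDAC1. Scaling turned ATP1A3a to 0.11 (quantile) and ATP6V1E1 to 0.073 (median-ratio) or 0.0098 (quantile). A pseudocount of 5 turned ATP2B1 to -0.017 and VDAC1 to -0.0065, and array weights turned CLIC4 to 0.026 and VDAC1 to -0.45.

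With the replicate number as a block, which leaves pectoral replicate 3 and tail replicate 4 without a partner and so out of the difference, 1 row and 0 members were called and the unadjusted p under 0.05 passed from KCTD2 to SLC1A1. The block turned CLIC4 to 0.16, ATP1A3b to 0.35, VDAC2 to 0.10, CACNG2 to -0.50, KCMF1 to -0.55, ATP6V0C to -0.37 and VDAC1 to -0.21. Deviations of same-numbered libraries correlated across rows at -0.03 and -0.0027, so the numbers were not taken to pair them.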
